A study of Mus musculus with 32 samples.

Results

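The SOX transcription factors described here were 10 genes, Sox1, Sox2, Sox3, Sox4, Sox5, Sox6, Sox8, Sox9, Sox11 and Sox21, taken by symbol from the 32285 genes of the files. All 10 were found, and all 10 passed the filter on low counts in each of the 4 cell populations examined. Single cells came from the dorsal telencephalon, the part of the embryonic brain that forms the cerebral cortex, of C57BL/6J mouse embryos that were wild type (WT, 2 copies of Chd8) or Chd8+/- (het, 1 copy). Chd8 encodes a chromatin remodeller, and the series compared the genotypes at the embryonic days E12.5 and E14.5 and at the later days E16.0 and E17.5. Each genotype had 4 libraries at a stage, which makes 32. Each library was 1 embryo, named M1 or M2 for males and F1 or F2 for females. Pairs of a WT and a het embryo were matched for litter and sex per the labels' protocols, and were read here from the shared name, which gave 16 pairs. The medial wall was cut away so that the future hippocampus was not sampled. No agent or second allele is named in the labels, and the part of Chd8 that was deleted is not given in the sources used here.

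Cells were grouped by UMIs, the molecular tags that count each captured RNA molecule once. Fabp7-high cells carried at least 5 UMIs of Fabp7, a fatty acid binding protein of radial glia, the stem cells of the cortex. Eomes-detected cells carried at least 1 UMI of Eomes, a factor of intermediate progenitors. Neurod6-detected cells carried at least 1 UMI of Neurod6, a factor of excitatory neurons, and Gad2-detected cells at least 1 UMI of Gad2, a GABA-synthesising enzyme of interneurons. The gates held 42062, 31787, 84959 and 4798 of 138226 cells, and a cell can pass several of them. Values are CPM, the UMIs of a gene per 1000000 UMIs of the cells of a gate, summed within a library.

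SOX proteins bind DNA through a domain related to that of the sex-determining factor SRY, and they fall into families by sequence. The SOXB1 proteins Sox1, Sox2 and Sox3 keep neural progenitors undifferentiated, and Sox21, of the related SOXB2 family, can counteract them. The SOXC proteins Sox4 and Sox11 act in newly formed neurons, the SOXD proteins Sox5 and Sox6 in deep-layer projection neurons and in interneurons and progenitors respectively, and the SOXE proteins Sox8 and Sox9 in glial specification. Since the 3′ ends of transcripts were counted, a level is compared between cells and samples for 1 gene at a time.

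The genes lie on GRCm38 at chromosome 8 from 12395295 to 12400126 (Sox1), chromosome 3 from 34650405 to 34652461 (Sox2), chromosome X from 60891366 to 60893430 (Sox3), chromosome 13 from 28948919 to 28953713 (Sox4), chromosome 6 from 143828425 to 144781977 (Sox5), chromosome 7 from 115470872 to 116038796 (Sox6), chromosome 17 from 25565892 to 25570686 (Sox8), chromosome 11 from 112782224 to 112787760 (Sox9), chromosome 12 from 27334264 to 27342574 (Sox11) and chromosome 14 from 118233232 to 118237030 (Sox21), per GENCODE M21. Sox3, Sox4, Sox9 and Sox11 overlap no other gene of the files. Sox1 and Sox2 overlap Sox1ot and Sox2ot on the same strand, Sox5 overlaps 6 listed transcripts (Sox5os1 to Sox5os5 and Sox5it), Sox6 overlaps Sox6os and Gm45025, Sox8 overlaps 2810468N07Rik and Sox21 overlaps Gm4675. Whether counting used strand is not given in the sources used here, so reads of such neighbours may not be separable from those of the SOX gene.

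The stretches before the start sites of Sox4, Sox11 and Sox2 are shown because Sox4 and Sox11 rose, and Sox2 fell, at the same passage from Fabp7-high to Eomes-detected cells. Each is the 250 bases upstream of the RefSeq start on GRCm38.p6, 5′ to 3′ on the gene's strand, at chr13:28953700-28953949 (minus strand), chr12:27342719-27342968 (minus strand) and chr3:34649745-34649994 (plus strand). Capitals mark matches on either strand to 4 motifs, none of which overlap in these stretches. The CCAAT box was searched by its name's letters, and the GC box as GGGCGG. The search for a TATA box used the letters TATAAA. A SOX-like motif was either CTTTGT or, with 1 base changed, CATTGT.
Sox4: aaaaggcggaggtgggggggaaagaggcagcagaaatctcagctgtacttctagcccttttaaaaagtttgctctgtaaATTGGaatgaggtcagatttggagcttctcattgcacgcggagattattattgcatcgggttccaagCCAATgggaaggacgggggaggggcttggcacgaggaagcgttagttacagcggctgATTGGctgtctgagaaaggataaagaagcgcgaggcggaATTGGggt
Sox11: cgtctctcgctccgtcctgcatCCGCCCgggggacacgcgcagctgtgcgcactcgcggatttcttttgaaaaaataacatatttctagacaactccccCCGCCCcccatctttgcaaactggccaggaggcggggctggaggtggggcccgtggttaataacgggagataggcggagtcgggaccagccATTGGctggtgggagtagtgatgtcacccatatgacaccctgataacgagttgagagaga
Sox2: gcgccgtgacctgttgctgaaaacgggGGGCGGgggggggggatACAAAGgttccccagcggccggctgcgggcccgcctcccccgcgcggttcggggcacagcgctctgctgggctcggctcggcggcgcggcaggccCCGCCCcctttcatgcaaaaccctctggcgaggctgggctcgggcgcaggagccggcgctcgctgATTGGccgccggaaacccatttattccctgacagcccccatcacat
The stretch before Sox4 held 4 CCAAT matches and no other motif, that before Sox11 held 1 CCAAT match and 2 GC boxes, and that before Sox2 held 1 CCAAT match, 2 GC boxes and 1 SOX-like match. Among 27025 RefSeq promoters of the same length, 34.5% held CCAAT, 32.9% a GC box, 25.5% a SOX-like motif and 13% a TATA box. Their median GC content was 52% and their median number of CG pairs was 6, against 50.8% and 11 for Sox4, 58% and 17 for Sox11, and 72% and 27 for Sox2. The RefSeq promoter table used here was matched for 8 of the 10 genes, and the promoters of Sox3 and Sox9 were not analysed here. The matches describe letters in these windows and were not tested for binding.

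Markers of the cells they are named for were found in the Fabp7-high and Gad2-detected gates, and such values are not given here for the others. In WT Fabp7-high cells the 6 radial glial markers (Pax6, Vim, Hes1, Hes5, Slc1a3 and Nes) summed to medians between 2584 and 3975 CPM over the stages, and in Gad2-detected cells the 6 interneuron markers summed to medians between 812.4 and 1618 CPM. The gates also overlapped. Of Fabp7-high cells, 11.01% at E12.5 and 44.04% at E17.5 also carried a Neurod6 UMI, and 9.176% and 36.56% an Eomes UMI. Of Eomes-detected cells, 62.31% at E12.5 and 82.98% at E17.5 also carried a Neurod6 UMI, so most cells of that gate had UMIs of both. The share of UMIs from RNA outside the cell was not estimated. Of Neurod6-detected cells, 47.42% and 19% also carried an Eomes UMI. Gad2-detected cells were mixed as well. Among them 19.77% at E12.5 and 28.61% at E17.5 also carried a Neurod6 UMI, with the highest share, 39.45%, at E16.0. The part that was also Fabp7-high was lowest at E14.5 (7.883%) and highest at E16.0 (18.19%). In Fabp7-high cells the summed excitatory neuron markers had a median of 74.59 CPM at E12.5 and 263.1 CPM at E17.5, those of intermediate progenitors 452.7 and 1106 CPM, and those of oligodendrocyte precursors (Olig1, Olig2, Pdgfra, Sox10 and Cspg4) 1.745 and 448.9 CPM. Libraries held between 14710694 and 66499864 UMIs and between 2399 and 6951 cells after filtering. Across libraries 11285 barcodes occurred more than once, at most 1.21% of the smaller library of any pair, and 4 E12.5 libraries with under 20 Gad2-detected cells (WT M2 and F2, het M1 and F2) were left out of the Gad2 fit, which leaves 2 per genotype there. At E17.5 3 libraries, WT M1, het M1 and het F1, stood apart from the other 5 on the first principal component, which took 58.8% of the variance in Fabp7-high cells. At E12.5 the first component (62.4%) set het M1, F1 and F2 against the other 5 libraries, and at E14.5 and E16.0 (57.6% and 56.3%) it set males against females in both genotypes. Pairs shared litter as well as sex, so sex, litter and collection cannot be told apart in that split. As a check of the genotype, Chd8 was lower in the het embryo in 14, 15 and 15 of 16 pairs in Fabp7-high, Eomes-detected and Neurod6-detected cells and in 10 of 13 in Gad2-detected cells. Its log2 difference was -0.27, -0.26, -0.29 and -0.23, with adjusted p-values of 0.0883, 0.0678, 0.137 and 1 in edgeR's quasi-likelihood test. Since counted 3′ ends may lie outside the deleted part, this check is partial.

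To place the genes along the lineage, the 4 populations were compared within the 16 WT libraries, using only cells that passed exactly 1 gate. These sets can be small. At E17.5 the WT libraries held 39, 37, 32 and 50 such Eomes-detected cells (M1, M2, F1, F2), against 715, 726, 538 and 690 in the whole gate. SOXC and SOXB1 genes moved in opposite directions. From Fabp7-high to Eomes-detected cells, averaged over the stages, Sox4 rose by 1.70 ± 0.05 (SE) on the log2 scale, Sox11 by 1.59 ± 0.05 and Sox5 by 0.38 ± 0.12, while the other 7 genes fell (edgeR's quasi-likelihood test with library as block and Benjamini-Hochberg adjustment, largest adjusted p = 0.00714). Of all 13753 genes tested, 16% were higher and 31.9% were lower in this comparison, and the median of all genes was -0.15. At E12.5 Sox5 lay the other way, at 28.89 ± 1.69 CPM in Fabp7-high and 22.62 ± 5.93 CPM in Eomes-detected cells, a difference of -0.35 ± 0.15 that was not called (adjusted p = 0.0687), and of the single stages only E16.0 was called, at 1.02 ± 0.22 (adjusted p = 2.42e-04). From Eomes-detected to Neurod6-detected cells Sox5 rose by 2.07 ± 0.09, Sox11 by 1.31 ± 0.05 and Sox4 by 0.24 ± 0.05, and again 7 fell, beside 30.2% and 29.9% of all genes. Gad2-detected cells differed from Neurod6-detected cells in 8 genes, with Sox2, Sox1, Sox6, Sox21 and Sox9 higher and Sox5, Sox11 and Sox4 lower on average over the stages, beside 11.3% and 21.2% of all genes. At E14.5 the Sox9 difference was -0.01 ± 0.35 (adjusted p = 0.991), and of the single stages only E17.5 was called, at 2.08 ± 0.24 (adjusted p = 7.04e-10). The sums cannot tell a smaller share of expressing cells from less RNA per cell.

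**Figure D1:**
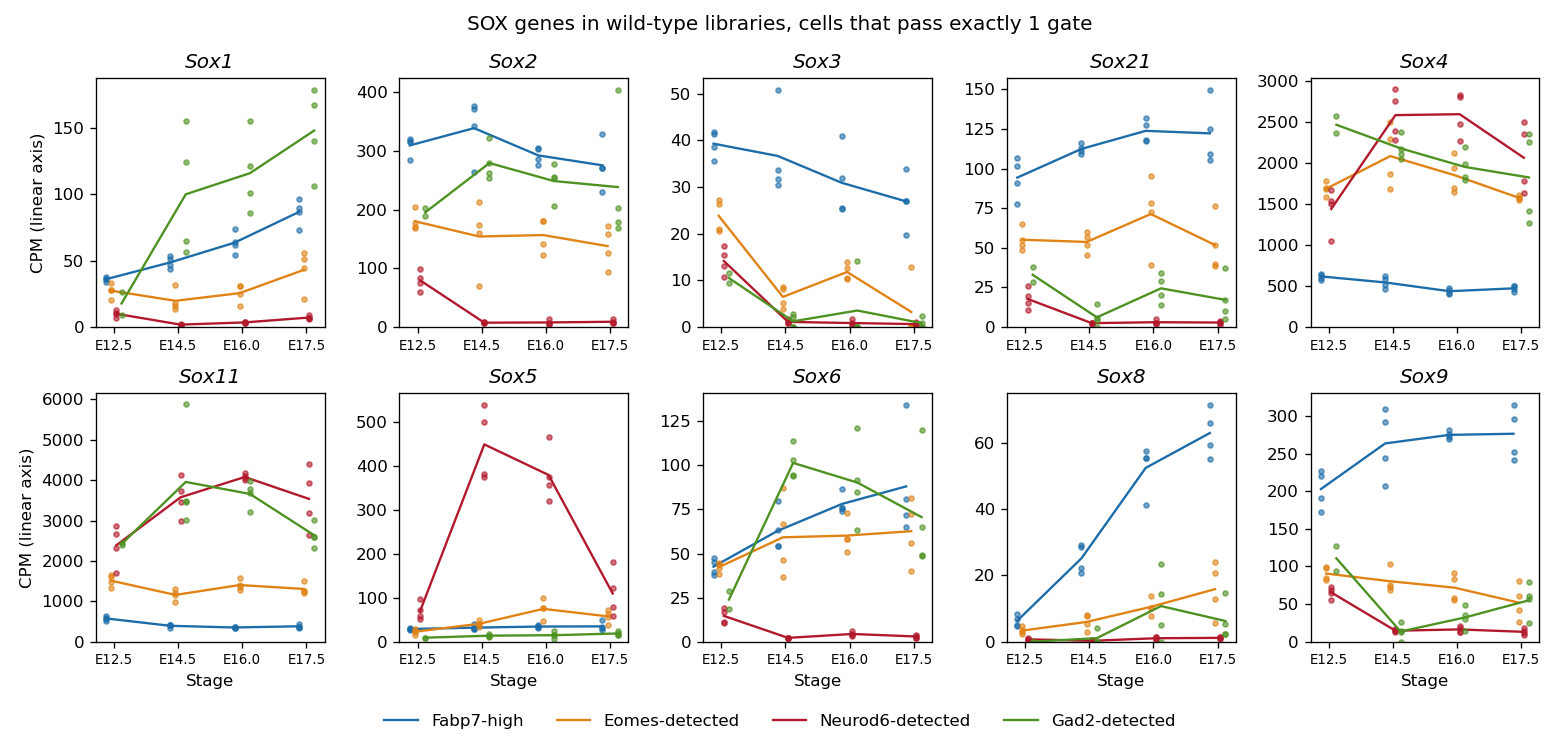
CPM of the 10 SOX genes (y axis, linear, from 0) by stage (x axis) in wild-type libraries, for cells that pass exactly 1 of the 4 gates; each point is a library, lines join the means of 4 libraries (2 at E12.5 in Gad2-detected cells). Sox4 and Sox11 lie lowest in Fabp7-high cells at every stage, Sox5 has its highest means in Neurod6-detected cells at E14.5 and E16.0, and Sox8 and Sox9 lie highest in Fabp7-high cells.

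Sox2, the SOXB1 factor that marks neural stem cells, was highest in Fabp7-high cells, at a mean of 309.4 ± 16.6 CPM (SD, n = 4) at E12.5 and 275.4 ± 40.2 CPM at E17.5. It lay at 180.1 ± 16.7 CPM and 137.8 ± 35.5 CPM in Eomes-detected cells. In Neurod6-detected cells it lay at 79.55 ± 16.8 CPM at E12.5 and 7.334 ± 1.02 CPM at E14.5 and stood at 8.954 ± 2.98 CPM at E17.5. The Fabp7-high libraries lay above the Eomes-detected ones at each stage without overlap, and the step between these populations was -1.05 ± 0.08 on the log2 scale and the next one -3.51 ± 0.13. Gad2-detected cells carried 195.2 ± 9.79 CPM (n = 2) at E12.5 and 279.3 ± 30.1 CPM (n = 4) at E14.5, a range that meets that of the Fabp7-high libraries. Averaged over the stages Sox2 was 4.03 ± 0.14 higher (log2) in Gad2-detected than in Neurod6-detected cells (adjusted p = 8.13e-30).

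Sox1 and Sox3, the other SOXB1 genes, parted in Gad2-detected cells. Sox1 stood at 36.04 ± 1.70 CPM in Fabp7-high cells at E12.5 and at 86.67 ± 9.90 CPM at E17.5, and in Gad2-detected cells it went from 17.74 ± 11.8 CPM (n = 2) to 148.1 ± 32.1 CPM (n = 4). At E17.5 the lowest Gad2-detected library, at 106.5 CPM, lay above the highest Fabp7-high library, at 96.82 CPM. Sox3, by contrast, lay at 0.8352 ± 1.15 CPM (2 UMIs in all) in Gad2-detected cells at E17.5, against 26.93 ± 5.75 CPM in Fabp7-high cells. Sox1 was 3.90 ± 0.32 higher (log2) in Gad2-detected than in Neurod6-detected cells, and 1.75 higher and not called when cells were thinned to 3000 UMIs each. The WT Gad2-detected cells of 1 gate at E12.5 held 11 Sox1 UMIs before thinning, so the thinned average may not be estimable. The difference for Sox3 between these populations, without thinning, was 0.25 ± 0.56 (adjusted p = 0.788). The steps of Sox3 were -1.98 ± 0.19 from Fabp7-high to Eomes-detected cells and -2.46 ± 0.46 from there to Neurod6-detected cells. All 3 Sox3 UMIs of the WT Eomes-detected cells of 1 gate at E17.5 were in M2. Without that library the group has no Sox3 UMI, so no averaged difference is given for that setting.

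Sox21, the SOXB2 gene, followed the Fabp7-high gate. Its means there lay between 94.27 CPM at E12.5 and 123.8 CPM at E16.0, against 51.75 to 71.29 CPM in Eomes-detected cells and 2.435 to 17.73 CPM in Neurod6-detected cells. The changes were -1.06 ± 0.11 and -3.73 ± 0.20 on the log2 scale.

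Sox4 and Sox11, the SOXC genes of newborn neurons, were lowest in Fabp7-high cells. Sox11 lay at 392.8 ± 40.3 CPM in Fabp7-high cells at E14.5, at 1158 ± 135 CPM in Eomes-detected cells and at 3577 ± 476 CPM in Neurod6-detected cells. The libraries of the 3 populations did not overlap at any stage. Sox4 reached most of its level one step earlier: 542.7 ± 69.0 CPM in Fabp7-high, 2081 ± 376 CPM in Eomes-detected and 2580 ± 298 CPM in Neurod6-detected cells at E14.5, with the last pair of ranges overlapping. At E12.5 Sox4 lay at 1438 ± 268 CPM in Neurod6-detected and 1683 ± 76.6 CPM in Eomes-detected cells, a difference of -0.38 ± 0.09 that was called in the opposite direction (adjusted p = 4.23e-04). With all cells of each gate counted, the averaged Sox4 difference between Neurod6-detected and Eomes-detected cells was 0.04 and was not called. Averaged over the stages, the difference of Gad2-detected from Neurod6-detected cells was -0.22 ± 0.06 for Sox11 and -0.14 ± 0.05 for Sox4 on the log2 scale, the latter not called by DESeq2. At E12.5 the CPM of Sox4 lay the other way, at 2462 ± 148 CPM (n = 2) in Gad2-detected against 1438 ± 268 CPM in Neurod6-detected cells. That of Sox11 did so at E14.5, at 3957 ± 1302 CPM against 3577 ± 476 CPM, with overlapping ranges. Tests of these single stages are not given here.

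The 6 neuronal genes listed beside the SOXC pair also rose from Fabp7-high to Eomes-detected cells, 6 of 6, with a median of 2.73 on the log2 scale. Neurog2, a proneural factor, rose by 3.93 and Tubb3, a neuronal tubulin, by 2.69. Of the 10 SOXB1 partners and progenitor genes, 5 fell and 2 rose at the same step, beside 31.9% and 16% of all genes. Hes1 and Hes5, effectors of Notch signalling, fell by 3.06 and 1.98. The 2 that rose were the POU factors Pou3f1, by 2.59, and Pou3f2, by 0.51, the latter named after its values were seen.

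Sox5, a SOXD factor of deep-layer neurons, peaked at the middle stages in Neurod6-detected cells. With every cell of the gate counted, WT libraries lay at 72.16, 47.92, 56.02 and 44.36 CPM at E12.5 (M1, M2, F1, F2). At E14.5 it lay at 370.1, 379.2, 238 and 267.3 CPM, and at E16.0 at 258.4, 315.8, 247 and 215.2 CPM. At E17.5 it lay at 164.6, 59.38, 111.4 and 72.4 CPM. All 8 libraries of the middle stages stood above all 8 of E12.5 and E17.5. The rise to E14.5 was 2.48 ± 0.27 on the log2 scale (adjusted p = 3.12e-08) and the fall from E16.0 to E17.5 -1.27 ± 0.26 (adjusted p = 0.00316). In Gad2-detected cells that passed no other gate its means stayed between 9.046 and 18.69 CPM, and the difference from Neurod6-detected cells was -3.84 ± 0.15. All 5 laminar genes listed beside Sox5 were called from E12.5 to E17.5 in Neurod6-detected cells, 2 higher and 3 lower, with a median of -1.26 on the log2 scale, beside 31.7% higher, 27.9% lower and a median of 0.04 over all genes. The 3 that fell were Tbr1, Fezf2 and Bcl11b, known for deep layers, at -1.64, -2.06 and -1.26. Foxp2, another factor of deep-layer neurons, named after its values were seen, rose by 0.62.

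Sox6, the other SOXD gene, was found in progenitors and Gad2-detected cells. At E14.5 its means were 62.89 ± 11.9 CPM in Fabp7-high, 59.18 ± 22.5 CPM in Eomes-detected and 101.4 ± 9.34 CPM in Gad2-detected cells, against 2.158 ± 0.118 CPM in Neurod6-detected cells. The first 2 ranges overlapped, and the averaged difference between them, -0.31 ± 0.10, was not called by DESeq2. The difference between Gad2-detected and Neurod6-detected cells was 3.68 ± 0.28 (log2), and 0.91 and not called when cells were thinned. At E12.5 the WT Gad2-detected cells of 1 gate held 14 Sox6 UMIs before thinning, so the thinned average may not be estimable. Of the 5 interneuron genes listed beside Sox6, 4 were higher in Gad2-detected than in Neurod6-detected cells and 1 was not called, beside 11.3% higher over all genes. They included Sst, a neuropeptide, by 8.31, and Lhx6, a factor of medial ganglionic interneurons, by 6.93.

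Sox9 and Sox8, the SOXE genes, were highest in Fabp7-high cells. Sox9 means ranged from 202.8 to 276.3 CPM there, from 51.91 to 90.52 CPM in Eomes-detected cells and from 13.04 to 65.43 CPM in Neurod6-detected cells, with falls of 1.91 ± 0.09 and 1.76 ± 0.15 on the log2 scale. Sox8 means ranged from 6.321 to 63.05 CPM, from 3.351 to 15.87 CPM and from 0.2502 to 1.152 CPM in the same order, with falls of 1.89 ± 0.17 and 3.49 ± 0.30. In Gad2-detected cells Sox8 had no UMI in either E12.5 library, so no averaged difference is given.

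To follow each gene with age, WT libraries of E17.5 were set against those of E12.5 within each population, using every cell of a gate. In Fabp7-high cells 9 of 10 genes were called, 5 higher and 4 lower, beside 27.9% and 28.4% of the 13699 genes tested. In Eomes-detected cells 6 were called, 3 in each direction, beside 25.7% and 24.4%. In Neurod6-detected cells 7 were called, 2 higher and 5 lower, beside 31.7% and 27.9%, and in Gad2-detected cells 4, with 2 in each direction, beside 6.66% and 4.88%. Over the 3 steps between stages, 7, 4, 9 and 8 of 30 tests were called in the same order of populations, beside 19.1%, 14.4%, 17.9% and 8.01% of tests over all genes. Stage and time of collection cannot be told apart. Depth also fell with age: WT libraries had medians of 8593 to 10479.5 UMIs per retained cell at E12.5 and 4058 to 5412 at E17.5. The gates asked for the same number of UMIs at each stage, so which cells pass may differ with depth. From E12.5 to E17.5, thinned Fabp7-high cells gave 3 calls higher and 2 lower. The counts were 4 and 3 in Eomes-detected, 1 and 5 in Neurod6-detected and 1 and 0 in Gad2-detected cells. The part of depth was not tested beyond the thinning.

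Sox8 showed the largest change of the 10 genes in Fabp7-high cells. It lay at 6.698, 8.282, 5.187 and 4.731 CPM in the WT libraries of E12.5 (M1, M2, F1, F2), at 14.52, 15.16, 23.22 and 21.17 CPM at E14.5, at 39.81, 41.27, 30.62 and 40.79 CPM at E16.0 and at 44.59, 50.31, 36.79 and 36.06 CPM at E17.5. The ranges of the first 3 stages did not overlap, while those of E16.0 and E17.5 did. From E12.5 to E17.5 Sox8 rose by 2.58 ± 0.22 on the log2 scale (adjusted p = 3.31e-11), by 1.89 ± 0.29 in Eomes-detected and by 1.94 ± 0.49 in Neurod6-detected cells. In Gad2-detected cells it had 0 UMIs at E12.5, where 3 counts of 920383 UMIs over both libraries would be 3.26 CPM, and 19.4 CPM at E17.5, at least 5.94-fold higher. In Gad2-detected cells of 1 gate the E17.5 mean was 6.249 ± 5.85 CPM. The Gad2 call was lost in those cells (adjusted p = 0.201), with stricter gates (adjusted p = 0.102) and without E12.5 WT M1 or F1 (adjusted p = 0.126 and 0.124). Oligodendrocyte precursor markers were higher at E17.5 as well, and a median of 1.51% of WT Fabp7-high cells at E12.5 and 22.39% at E17.5 had a UMI of one. Without such cells, an alternative chosen after seeing the data, the Sox8 change was 1.91 ± 0.25 in Fabp7-high cells (adjusted p = 1.05e-07), 1.46 ± 0.29 in Eomes-detected cells (adjusted p = 9.22e-05) and 1.13 ± 0.50 in Neurod6-detected cells (adjusted p = 0.0542), and the call in Gad2-detected cells was lost (adjusted p = 0.0902). In Eomes-detected cells of 1 gate Sox8 did not pass the filter on low counts. In Neurod6-detected cells that passed no other gate the Sox8 change was 0.61 ± 0.59 (adjusted p = 0.388), and with thinned cells it was 1.02 ± 0.62 (adjusted p = 0.169).

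Of the glial genes listed beside the SOXE pair, 7 of 8 rose and 1 fell in Fabp7-high cells between these stages, beside 27.9% and 28.4% of all genes, with a median of 3.38 on the log2 scale against 0.00 over all genes. Aldh1l1, an astrocyte enzyme, rose by 7.59 and Olig2, a factor of the oligodendrocyte lineage, by 7.66, while Hes5, named here after its values were seen as the 1 gene that fell, changed by -0.35. Of the other SOX genes, 5 of 9 could be tested in Fabp7-high cells: Sox10, the SOXE gene of oligodendrocytes, rose by 6.21 ± 0.53, Sox13 fell by 1.36 ± 0.22 and Sox12 by 0.49 ± 0.10, and Sox17 and Sox18 were not called.

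Sox3 fell in all 4 populations, in Gad2-detected cells on few UMIs. In WT Fabp7-high cells it lay at 39.61, 35.19, 38.65 and 41.69 CPM at E12.5 and at 23.19, 10.83, 18.53 and 15.75 CPM at E17.5, without overlap. In Neurod6-detected cells it lay at 15, 19.2, 17.27 and 18.01 CPM and at 2.165, 1.524, 2.147 and 2.91 CPM, the wider separation. The changes were -1.38 ± 0.26 in Fabp7-high, -2.20 ± 0.32 in Eomes-detected, -3.09 ± 0.39 in Neurod6-detected and -2.60 ± 0.76 in Gad2-detected cells (adjusted p = 3.34e-05, 1.49e-06, 1.15e-07 and 0.0245). The Gad2 call was lost without E12.5 WT M1 (adjusted p = 0.063), E12.5 WT F1 (adjusted p = 0.36) or E17.5 WT M2 (adjusted p = 0.0605), and with stricter gates, thinned cells or cells of 1 gate Sox3 did not pass the filter there. Whether these sizes differ between populations was not tested.

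Sox1 went the other way in Fabp7-high, Eomes-detected and Gad2-detected cells. It rose from 34.7, 36.48, 35.97 and 33.43 CPM to 75.66, 64.46, 61.32 and 70.52 CPM in WT Fabp7-high cells, by 0.77 ± 0.14, and by 0.73 ± 0.16 in Eomes-detected cells (0.59 with an adjusted p of 0.165 in the cells of that gate alone). In Gad2-detected cells it lay at 21.08 and 15.05 CPM in the 2 libraries of E12.5 and at 104.5, 85.67, 104.8 and 100.8 CPM at E17.5, a rise of 2.39 ± 0.36 (adjusted p = 7.22e-05). In Neurod6-detected cells the change of 0.06 ± 0.26 was not called, but with stricter gates it was a rise of 0.95 ± 0.24 (adjusted p = 0.00122), and in the cells of that gate alone it was -0.54 ± 0.28 (adjusted p = 0.0926). Sox2 fell by 0.72 ± 0.11 in Fabp7-high, by 0.63 ± 0.14 in Eomes-detected and by 1.74 ± 0.22 in Neurod6-detected cells, and its change in Gad2-detected cells, -0.04 ± 0.22, was not called. The Sox2 change in Eomes-detected cells was -0.28 ± 0.15 with stricter gates (adjusted p = 0.115) and -0.44 ± 0.23 in the cells of 1 gate (adjusted p = 0.134), neither called. Its Fabp7-high libraries lay at 306.9, 278.9, 306.3 and 319 CPM at E12.5 and at 212.4, 187.4, 195.1 and 239.4 CPM at E17.5, without overlap. Of the 10 SOXB1 partners and progenitor genes in the same cells, 5 rose, 4 fell and 1 was not called, beside 27.9% and 28.4% of all genes. The POU factors Pou3f2 and Pou3f1 rose by 3.25 and 4.02, and Lhx2, a cortical selector gene, fell by 1.33.

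For Sox4, Sox11, Sox9 and Sox21 in Fabp7-high cells, the direction with age turned on which cells were counted. Over the whole gate Sox11 lay at 676.5, 594.5, 659.2 and 684.5 CPM at E12.5 and at 1233, 1612, 1112 and 1475 CPM at E17.5, and it rose by 0.87 ± 0.15 (adjusted p = 1.39e-05). In the Fabp7-high cells that passed no other gate its mean went from 575.7 ± 53.2 CPM to 381.2 ± 44.3 CPM, and it fell by 0.75 ± 0.11 (adjusted p = 1.95e-06). Both comparisons were called, in opposite directions, and the groups did not overlap in either. Sox4 rose by 0.48 ± 0.13 over the whole gate and fell by 0.54 ± 0.10 in the cells of 1 gate, where its mean went from 616.1 ± 32.03 CPM to 470.5 ± 31.5 CPM. With thinned cells of the whole gate the Sox4 change was negative too, at a value given in the last section. With the stricter gate of 10 Fabp7 UMIs the changes were 0.01 for Sox4, 0.00 for Sox11, -0.08 for Sox9 and -0.02 for Sox21, none of them called. Over the whole gate the CPM of Sox9 overlapped between the stages, at 197.1 ± 24.2 CPM at E12.5 and 172.8 ± 19.9 CPM at E17.5, as did that of Sox21, at 91.59 ± 11.6 and 86.46 ± 9.68 CPM. CPM does not carry the TMM scaling factors, which the fitted changes do. In the fit Sox9 fell by 0.37 ± 0.10 over the whole gate and rose by 0.30 ± 0.12 in the cells of 1 gate (adjusted p = 0.0315), and the values for Sox21 were -0.26 ± 0.10 (adjusted p = 0.031) and 0.23 ± 0.12 (adjusted p = 0.0988). The whole-gate call of Sox21 was lost with DESeq2 (adjusted p = 0.0681) and with RLE size factors (adjusted p = 0.0711). The share of Fabp7-high cells that also carry Neurod6 or Eomes, given above, moved with these results, and its part in them was not tested. The genes Sox1, Sox2, Sox3, Sox6 and Sox8 kept their direction and were called in both sets of cells.

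Of the 6 neuronal genes beside the SOXC pair, 4 rose and 1 fell over the whole Fabp7-high gate, with a median of 1.02, beside 27.9% and 28.4% of all genes and a median of 0.00. The list was not counted in the cells of 1 gate. Dcx, a microtubule protein of migrating neurons, rose by 3.49 and Tead2 fell by 0.69. In Neurod6-detected cells the changes of Sox4 and Sox11, 0.18 ± 0.13 and 0.34 ± 0.15, were not called (adjusted p = 0.234 and 0.0506), and in the cells of that gate alone Sox4 rose by 0.46 ± 0.14 and Sox11 by 0.50 ± 0.17. With stricter gates they were -0.06 ± 0.12 (adjusted p = 0.691) and 0.04 ± 0.14 (adjusted p = 0.839). Sox9 fell by 1.57 ± 0.20, Sox21 by 1.30 ± 0.30 and Sox6 by 0.80 ± 0.16 in Neurod6-detected cells. In Gad2-detected cells Sox9 fell by 1.00 ± 0.33, from 143.8 and 135.5 CPM to 94.7, 77.1, 41.9 and 64.22 CPM. At E14.5 its values lay between 21.04 and 35.87 CPM, below either end. The share of these cells that was also Fabp7-high was lowest at that stage, and its part was not tested. In Gad2-detected cells of 1 gate the Sox9 means were 110.7 CPM at E12.5, 13.48 CPM at E14.5 and 55 CPM at E17.5. The Sox9 change was -1.05 in the cells of 1 gate (adjusted p = 0.0652) and -1.38 with thinned cells (adjusted p = 0.0845). Gad2 results against E12.5 rest on 2 libraries, and leaving out either left 1 call of 4. The fit then assumes that the lone library varies like those of the other groups.

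**Figure D2:**
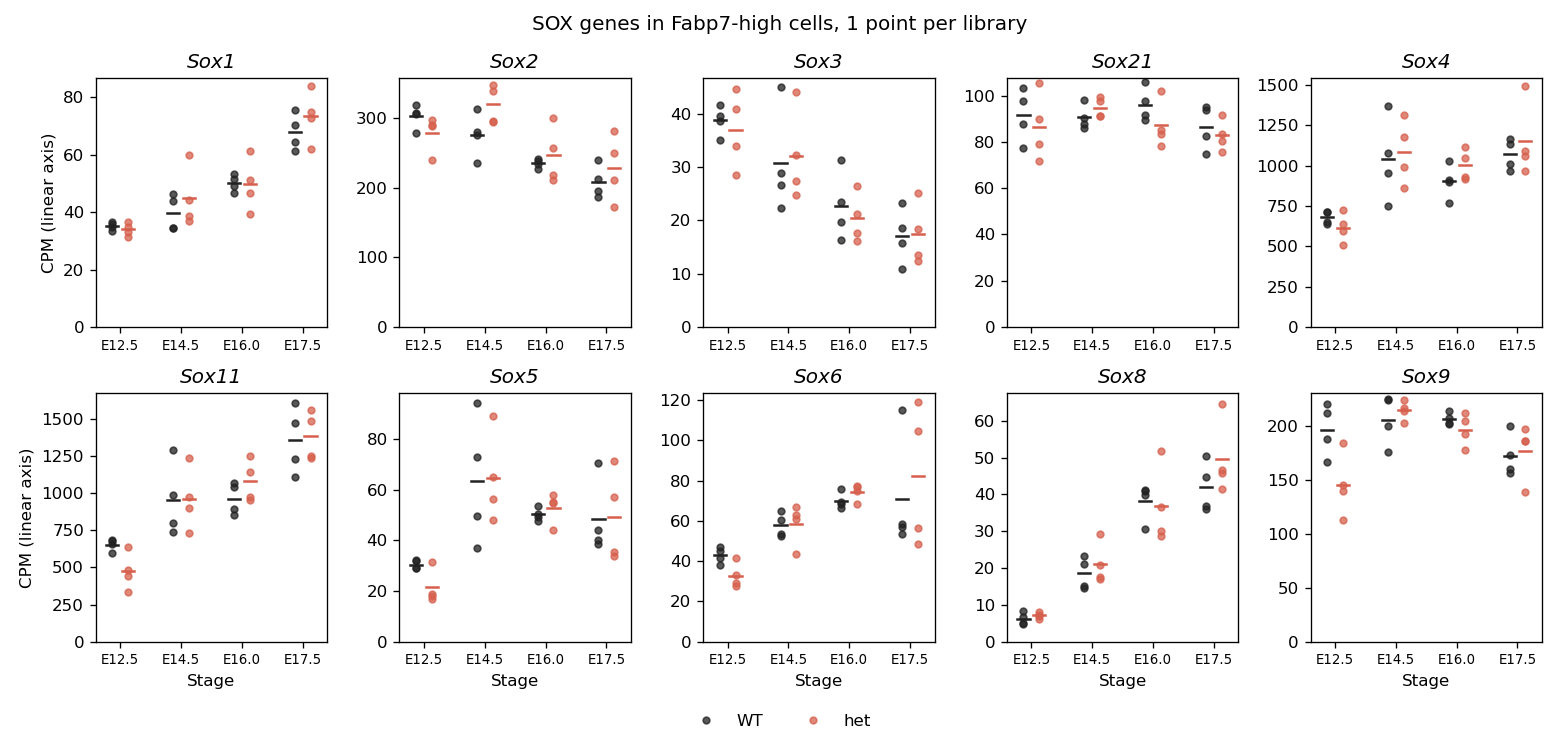
CPM of the 10 SOX genes (y axis, linear, from 0) by stage (x axis) in all Fabp7-high cells; each point is a library, WT in black and het in red, and the short bar is the mean of 4 libraries. Sox8 climbs from under 9 CPM in all E12.5 libraries, Sox3 declines, Sox9 and Sox11 sit lower in 3 het libraries at E12.5, and Sox6 splits at E17.5.

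Sox5 and Sox6 were higher in the 3 E17.5 libraries that stand apart, which were picked on all genes, these included. In Fabp7-high cells Sox6 lay at 115.1 CPM in WT M1, 104.8 CPM in het M1 and 118.9 CPM in het F1, and between 48.5 and 58.42 CPM in the other 5. The groups of 3 and 5 libraries did not overlap for Sox5 and Sox6 in any of the 4 populations, with Sox5 in Neurod6-detected cells at 160.6 to 199.6 CPM against 59.38 to 111.4 CPM. The same groups did not overlap for Sox3 in Eomes-detected and Gad2-detected cells and for Sox9 in Neurod6-detected cells, where the 3 were higher as well. The share of all genes without overlap between these groups is not given here, so the separation cannot be set against it. Both genotypes are among the 3, and what sets these libraries apart was not tested. The Sox6 rise in Fabp7-high cells, 0.53 ± 0.19, became 0.26 ± 0.18 without WT M1 (adjusted p = 0.233). The Sox5 rise from E12.5 to E17.5 in Neurod6-detected cells, 0.79 ± 0.26, became 0.49 ± 0.26 (adjusted p = 0.113) and was 0.52 ± 0.26 with stricter gates (adjusted p = 0.0886), and that in Eomes-detected cells, 0.80 ± 0.21, became 0.59 ± 0.21 (adjusted p = 0.0227).

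**Figure D3:**
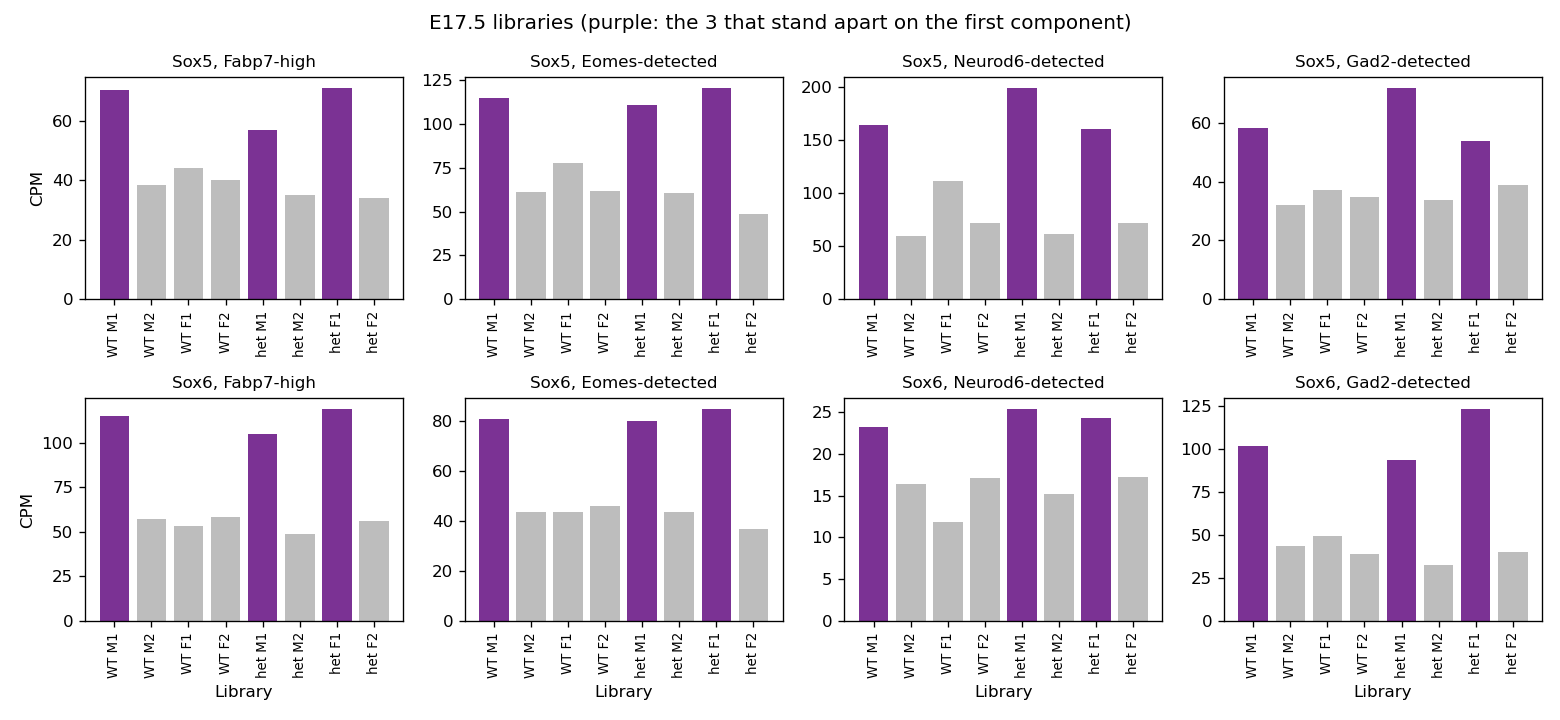
CPM (y axis, from 0) of Sox5 (top) and Sox6 (bottom) in each of the 8 libraries of E17.5 (x axis) in the 4 populations; purple bars are the 3 libraries that stand apart on the first principal component. In each panel the 3 purple bars exceed the 5 grey ones.

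The genotypes were compared next, which is the question of the series. No SOX gene was called between het and WT averaged over the stages in any population, beside 0.394%, 0.282%, 0.226% and 0% of all genes in Fabp7-high, Eomes-detected, Neurod6-detected and Gad2-detected cells, and 0 of 10 had an unadjusted p under 0.05 in each. DESeq2 and the fit with the matched pair as block also called 0. In Fabp7-high cells the averaged log2 differences lay between -0.09 ± 0.05 (Sox9) and 0.15 ± 0.11 (Sox8), and in Neurod6-detected cells between -0.25 ± 0.19 (Sox3) and 0.13 ± 0.24 (Sox8). Standard errors reached 0.43 (Sox3 in Gad2-detected cells), so small differences in the low genes were not detectable. At single stages 0 of 40 tests were called in each population, beside 0.365%, 0.103%, 0.00172% and 0% over all genes. In Fabp7-high cells DESeq2 called 1 of them and the fit with the matched pair as block called 3. In edgeR without the block, 2, 1, 0 and 0 of the 40 tests had an unadjusted p under 0.05. Some tests shared a sign of the CPM difference over all 4 pairs. The share of all genes that did so is not given here, so these cases cannot be set against it. The gates also share cells, so repeats between them are not independent. At E12.5 het was lower in 4 of 4 pairs for Sox5, Sox6 and Sox8 in Eomes-detected and Sox5 in Neurod6-detected cells. At E14.5 it was lower in 0 of 4 for Sox1 and Sox2 in all gates but Gad2. The same held for Sox4 and Sox8 at E14.5 in Neurod6-detected cells and for Sox5 at E17.5 in Gad2-detected cells. In Fabp7-high cells it held for Sox4 and Sox6 at E16.0 and for Sox8 at E17.5. The test that the genotype difference varies with stage called 0 of 10 genes in each population and 0% of all genes, with 1 SOX gene at an unadjusted p under 0.05 in Fabp7-high cells and 0 elsewhere.

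**Figure D4:**
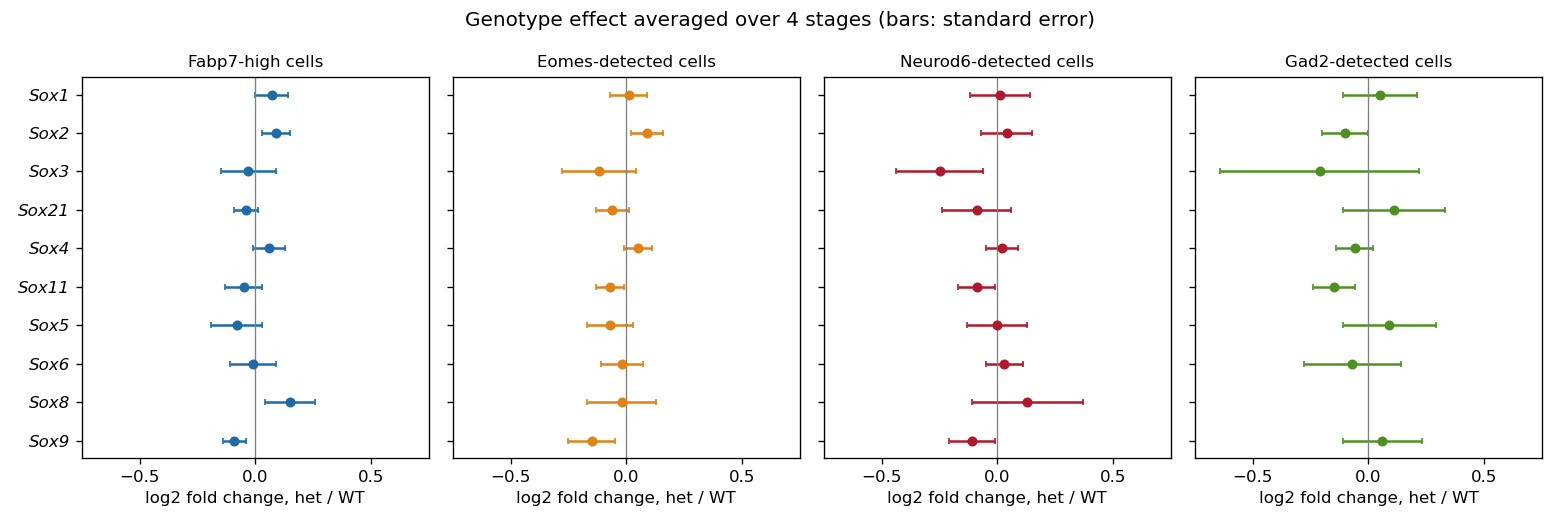
Log2 fold change of het over WT averaged over the 4 stages (x axis) for each SOX gene (y axis) in the 4 populations; points are estimates and bars standard errors, and Sox8 in Gad2-detected cells is left out because no error could be estimated. All points lie between -0.25 and 0.15 and none passed the test.

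The smallest p-values were those of E12.5 Fabp7-high cells. Sox9 lay at 220.6, 167.4, 212.6 and 187.9 CPM in WT (M1, M2, F1, F2) and at 140.1, 184.4, 113.2 and 145.2 CPM in het. It was lower in the het embryo in 3 of 4 pairs, and the ranges overlapped through het M2 and WT M2. The difference was -0.34 ± 0.10 on the log2 scale, with an adjusted p of 0.0685 in edgeR's quasi-likelihood test. Sox11, at -0.37 ± 0.15 (adjusted p = 0.174), went from 676.5, 594.5, 659.2 and 684.5 CPM to 445.2, 637.6, 337.8 and 484.4 CPM, again with M2 as the exception. Sox5, at -0.41 ± 0.22 (adjusted p = 0.323), was lower in 3 of 4 pairs as well. Its het libraries lay at 17.02, 31.53, 18.03 and 18.95 CPM against 31.95, 28.89, 32.08 and 28.89 CPM in WT. The CPM of Sox2, Sox3, Sox4 and Sox6 was also lower in het in 3 of 4 pairs. Their fitted differences were -0.02, 0.04, -0.05 and -0.29, none of them called. With the matched pair as block these 3 genes were called at E12.5: Sox9 at -0.35 ± 0.09 (adjusted p = 0.0234), Sox11 at -0.39 ± 0.11 (adjusted p = 0.0285) and Sox5 at -0.42 ± 0.14 (adjusted p = 0.0498). Without the block, 198 of the 13699 genes tested were called at E12.5 in these cells. The share over all genes with the block is not given here.

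The het libraries of the same 3 pairs are those that the first component of E12.5 sets apart, and depth moved with them too. In Fabp7-high cells the median UMIs per cell of the het library were 0.762, 0.4398 and 0.64 times those of its WT partner in M1, F1 and F2, and 1.077 times in M2. Thinning to 3000 UMIs dropped the cells below that depth and gated the rest again. It took het M1 from 4229 to 3698 cells, F1 from 4210 to 2953 and F2 from 5752 to 5227. No other library of E12.5 lost cells, so the thinned het cells are a selected set. In the fit without the block, the differences after thinning were -0.38 ± 0.13 for Sox9, -0.23 ± 0.14 for Sox11 and -0.62 ± 0.22 for Sox5. The adjusted p-values were 0.201, 0.539 and 0.213 in edgeR's quasi-likelihood test. Without het M2 the Sox9 difference was called in Fabp7-high (-0.44, adjusted p = 0.00668), Eomes-detected (-0.83, adjusted p = 0.00327) and Neurod6-detected cells (-0.82, adjusted p = 0.00188), and Sox11 in Fabp7-high cells (-0.50, adjusted p = 0.0323). The share of all genes called without het M2 is not given here. The part of depth in the differences of these SOX genes was not tested beyond the thinning.

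**Figure D5:**
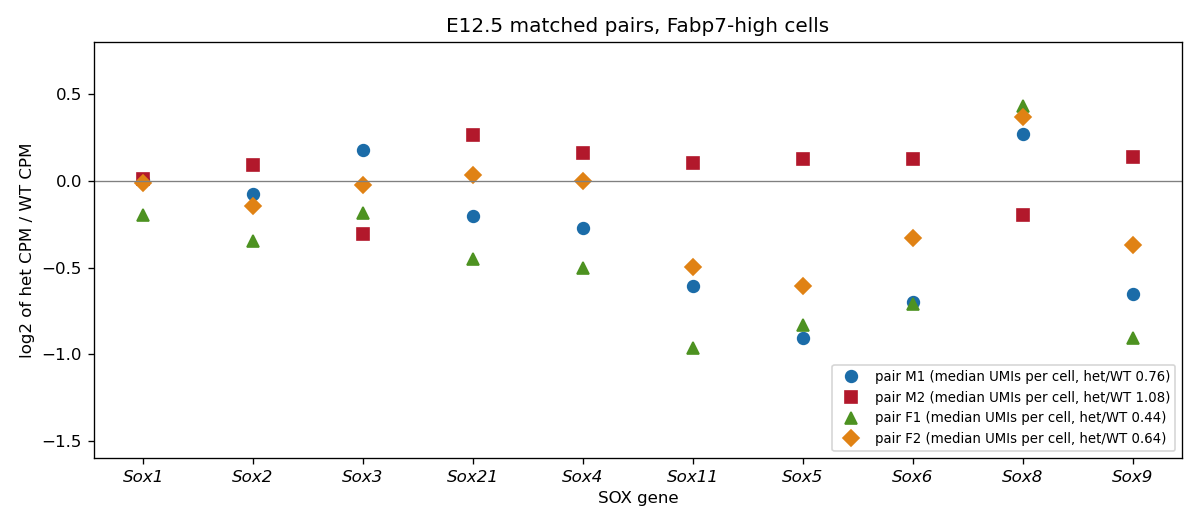
Log2 ratio of het to WT CPM (y axis) for the 10 SOX genes (x axis) in the 4 matched pairs of E12.5, Fabp7-high cells; each symbol is a pair, with the ratio of median UMIs per cell in the legend. Sox5, Sox9 and Sox11 lie below 0 in pairs M1, F1 and F2 and above 0 in pair M2. Sox2, Sox3, Sox4 and Sox6 also lie below 0 in 3 of the 4 pairs.

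Likeness of pattern was read over the 16 means of WT cells by population and stage, as a description, since the points share libraries and cells. Pearson's r on log2(CPM + 1) was 0.95 between Sox4 and Sox11, 0.95 between Sox9 and Sox21, 0.91 between Sox3 and Sox9 and -0.90 between Sox9 and Sox11. Among all genes above 20 CPM in a population and stage, the most alike were Sox1ot for Sox1 (r = 0.938), which overlaps it, Dnmt3a for Sox2 (0.915), Rrs1 for Sox3 (0.977), Cyth2 for Sox4 (0.975), Ifngr2 for Sox5 (0.942) and Hikeshi for Sox6 (0.871). For the others they were Lrrc8c for Sox8 (0.961), Decr1 for Sox9 (0.970), Pik3r3 for Sox11 (0.986) and Cnbp for Sox21 (0.984). Sox1 was also the third most alike for Sox6 (0.816), the only SOX gene of these 10 among the first 3 of another.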

How the data were processed

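Single-cell UMI count matrices were deposited by the authors, 1 per embryo, made with the 10x 3′ v2 chemistry per the labels' protocols. The submitters' processing notes name STAR 2.7.9a, STARsolo, Cell Ranger and mm10, without their roles. A barcode was kept with 1000 UMIs or more, 500 genes or more and no more than 10% of UMIs from mitochondria (143697 of 145082), and 5471 predicted doublets were removed, at 0.8% per 1000 cells. UMIs were summed per library and gate and tested with edgeR 4.0.16 (quasi-likelihood test, TMM factors, limma 3.58.1, R 4.3.3), with all 32 libraries and 8 groups in 1 fit per gate. P-values were adjusted by Benjamini-Hochberg over all genes tested, with a threshold of 0.05. Gates were compared in the 16 WT libraries with library as block. DESeq2 1.42.0, other size factors, no filter, stricter gates, cells thinned to 3000 UMIs, doublets kept, cells of 1 gate and each library left out were alternatives. Thinning kept only cells with at least 3000 UMIs, and the gates were then applied to the thinned counts. The code was tested on simulated data.

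Pairs matched for litter and sex are stated in the labels' protocols, and which libraries form a pair was read from the sex and replicate number in the titles. Deviations of paired libraries correlated above 0.1 in 15, 15 and 16 of 16 pairs in Fabp7-high, Eomes-detected and Neurod6-detected cells. The lowest values, 0.05, 0.02 and 0.14, were those of pair F1 at E17.5. Correlations of unmatched libraries are not given here. Libraries of 1 sex lay together on the first component at E14.5 and E16.0, so this cannot check the litter match. The 10 genes and the gene lists were chosen with earlier results of these data known. All 10 genes are named, with at most 4 genes per list, those with the smallest adjusted p, and the 3 genes most alike in pattern. Gene IDs matched GENCODE M21 for 32158 of 32285 genes. Sequences are from RefSeq, GRCm38.p6. Values are not reported here for every gene of the laminar list.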

Additional observations from a re-analysis of the deposited data

Results flagged for a closer look

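Among 300 groups of 4 libraries, 14 had a library far from the other 3, where chance gives about 1 in 20. Sox6 was high in E17.5 WT M1 in Fabp7-high (115 CPM, next 58.4), Eomes-detected (80.7 CPM, next 45.8) and Gad2-detected cells (102 CPM, next 49.3), the library named above as standing apart. In Fabp7-high cells, Sox2 was low in E12.5 het F1 at 240 CPM, Sox5 was high in E12.5 het M2 at 31.5 CPM, and Sox8 was low in E16.0 WT F1 at 30.6 CPM. In Neurod6-detected cells, Sox3 was low in E12.5 het F1 at 9.12 CPM (38 UMIs) and Sox6 was low in E14.5 WT F2 at 17.2 CPM. In Gad2-detected cells, Sox2 was high in E17.5 WT F2 at 270 CPM, Sox3 was high in E16.0 WT F2 at 17.4 CPM (8 UMIs), and Sox6 was low in E14.5 het F1 at 53.6 CPM (22 UMIs). Sox11 was high there in E16.0 het M1 at 3246 CPM, Sox21 was low in E16.0 het F1 at 28.4 CPM and high in E17.5 het M1 at 39 CPM.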

How the results depend on the processing

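Over 140 results for single SOX genes and 5209 alternative settings, 5059 kept the side of the threshold, 76 lost a call, 69 gained one and 5 changed direction with a call in at least 1 of the fits compared. Sign changes of values not called in either fit are among the 5059. The 5 were WT E17.5 against E12.5 in Fabp7-high cells: with only cells of 1 gate Sox4 was -0.54, Sox11 -0.75, Sox9 0.30 and Sox21 0.23, and with thinned cells Sox4 was -0.15. With the matched pair as replicate block 3 genes were called between genotypes at single stages in Fabp7-high cells, against 0 without it, and the block changed no other count of calls by over 1.5 times. DESeq2 called 1 there, and the fit without the 3 E17.5 libraries that stand apart 1. Leaving out 1 library gave 0 to 2 such calls in Fabp7-high (2 without E12.5 het M2, 1 without E17.5 het F2), 0 to 1 in Eomes-detected and 0 to 1 in Neurod6-detected cells. From E12.5 to E17.5, Fabp7-high calls went from 9 to 5 with stricter gates and to 5 with thinning, Eomes-detected calls from 6 to 3 with cells of 1 gate, and Gad2-detected calls from 4 to 1 with cells of 1 gate and to 1 with thinning (1 to 4 with 1 library left out). Over the steps between stages, Fabp7-high calls went from 7 to 4 with thinning. Eomes-detected calls went from 4 to 2 with cells of 1 gate, 2 with thinning, 8 without the 3 libraries and 3 to 7 with 1 library left out. Gad2-detected calls went from 8 to 5 with cells of 1 gate, 3 with thinning and 2 to 8 with 1 library left out. Thinning and cells of 1 gate leave fewer UMIs, and otherwise the cause was not tested. Depth limits Gad2-detected cells most, with 1 to 424 cells per library and 23 to 424 in the libraries kept for the fit.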
